A study of Mus musculus with 12 samples.

Results

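Chromatin contacts were described in a 2 mb region of mouse chromosome 5 (mm10 chr5:28000000-30000000) that holds Shh, its long range regulatory domain and the genes on both sides of it. The interactions described were those of the 6 deposited tables whose anchors both lie in this region. They numbered 4583 of 10237359 in ESC and 5629 of 10708066 in NCC for Hi-C, 930 of 1921126 and 1168 of 2388222 for FGFR1 HiChIP, and 497 of 882215 and 446 of 841945 for CTCF HiChIP. The 5 genes followed were En2, Shh, Rnf32, Lmbr1 and Mnx1. The region was set by its coordinates and not by a measured value, but it was chosen with earlier results of these data known. ESC were mouse embryonic stem cells of the E14Tg2A line grown with 100 U/mL LIF, a cytokine that holds them undifferentiated. NCC were cells of the same line, called neuronal committed cells in the study, after 48 h of 1 µM retinoic acid without LIF. Both cell types are therefore 1 line, both were fixed with formaldehyde, and neither carried a further treatment or genotype. Contacts and not RNA were analysed here, so the cell types were not checked against marker genes. Hi-C counts DNA ends that were ligated to each other in fixed nuclei, and HiChIP does so after precipitation with an antibody, here against the nuclear growth factor receptor FGFR1 or against the architectural protein CTCF.

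Shh encodes Sonic hedgehog, a secreted morphogen that patterns the floor plate, the ventral neural tube, the gut and the limb bud. Its receptor Ptch1 restrains Smo until the ligand binds, after which Gli transcription factors act on target genes. Many of the enhancers of Shh lie in a gene desert on 1 side of the gene, and the limb enhancer ZRS lies at the far end of the domain, inside an intron of Lmbr1. Lmbr1 encodes a membrane protein and its neighbour Rnf32 a RING finger protein, and neither is a known component of Hedgehog signalling. En2 (midbrain and hindbrain patterning) and Mnx1 (motor neuron and pancreas development) encode homeobox transcription factors, and they flank the Shh domain on opposite sides. CTCF often marks the edges of such domains, where pairs of its sites point towards each other.

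Along the chromosome the order was En2 (28165694-28172166, + strand), Rbm33 (28317121-28419239, +), Shh (28456815-28467256, − strand), Rnf32 (29195992-29228457, +), Lmbr1 (29229802-29378390, −) and Mnx1 (29473034-29478470, −), by the GENCODE annotation of GRCm38. The desert was taken as 28468000-29195991, the Shh window as 28456000-28468000 and the Lmbr1 end as 29310000-29380000, which holds both ZRS and the start of Lmbr1. Distances below run from the start of Shh and are positive towards Lmbr1. On this scale the start of En2 lay at −301.6 kb, that of Rnf32 at 728.7 kb, that of Lmbr1 at 911.1 kb and that of Mnx1 at 1011.2 kb.

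Each table merged 2 biological replicates, so that every value is from 1 pooled library and has no error between replicates. Intervals in brackets are 95% exact intervals that cover counting error only. The authors removed duplicate read pairs, but without molecular identifiers, so the remaining read pairs need not all be independent molecules. Tests on read pairs compare these pooled libraries and not the conditions. The whole tables held 20745652 (ESC) and 21228099 (NCC) read pairs for Hi-C, 2662606 and 3203872 for FGFR1 HiChIP, and 1218098 and 1056437 for CTCF HiChIP, on chromosomes 1 to 19 and X. In the region they held 12669 and 15170, 1580 and 1885, and 823 and 614. Anchors were called separately in each library and covered 42.9% of the region in ESC Hi-C and 49.8% in NCC Hi-C, 23.8% and 28.3% in FGFR1 HiChIP, and 391 and 399 of the 2000 kb in CTCF HiChIP. Read pairs inside 1 anchor made up 45.0% of the ESC and 30.3% of the NCC read pairs of the region in CTCF HiChIP, and 29.4% and 27.4% in Hi-C.

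Hi-C read pairs between the windows of En2, Shh and Mnx1 were more numerous in ESC than in NCC. Each window holds the whole gene, so these counts do not single out promoters. The stretch before En2 also had more read pairs with Shh in ESC (52 and 13). Hi-C read pairs between the Shh window and En2 numbered 37 in ESC and 3 in NCC. After scaling to 10000000 read pairs of the table these were 17.8 and 1.41, a log2 ratio (NCC over ESC, here and below) of −3.66 (−6.0 to −2.0). Between Shh and Mnx1 there were 10 read pairs in ESC and 2 in NCC, a log2 ratio of −2.36 (−5.59 to −0.12). Between En2 and Mnx1 there were 8 in ESC and 2 in NCC, a log2 ratio of −2.03 (−5.31 to 0.29) whose interval includes 0. All 3 pairs were lower in NCC, and the counts for both pairs with Mnx1 were small.

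The number of read pairs expected from distance and from the total strength of both anchors was computed within each table, and observed over expected was used to compare contacts of unlike distance. Shh with En2 stood at 8.74 (6.16 to 12.1) times the expected number in ESC and at 0.904 (0.186 to 2.64) in NCC. Shh with Mnx1 stood at 24.1 (11.6 to 44.3) in ESC and 5.08 (0.615 to 18.4) in NCC, and En2 with Mnx1 at 25.8 (11.1 to 50.8) and 6.87 (0.832 to 24.8). In ESC, contacts at En2 and Mnx1 thus lay well above what their distance and anchors gave, while the NCC intervals of all 3 pairs include 1. Scaling to the distance class of each table in place of the table total gave −3.60 for Shh with En2, −2.33 for Shh with Mnx1 and −2.03 for En2 with Mnx1.

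Single interactions carried these contacts. The highest score among ESC interactions of the region that span 100 kb or more was 20, between the En2 anchor 28164424-28169633 and the Shh anchor 28462546-28467922, which covers the start of Shh. The same En2 anchor met the Shh anchor 28457264-28459796 with a score of 13, and the Shh anchor 28454820-28456467 with a score of 4. An anchor just before En2 (28156512-28160400) met the Shh start anchor with a score of 12. The En2 anchor also met the Mnx1 anchor 29475291-29482246 with a score of 8 over 1306 kb, a score that the Shh start anchor also had with this Mnx1 anchor. There were 2573 ESC interactions that span 100 kb or more. In NCC the highest score at this span was 6, none of the 5 highest joined 2 of En2, Shh and Mnx1, and the En2 anchor met 1 Shh anchor (28462546-28464783) with a score of 3. This Mnx1 anchor was identical in both cell types, whereas the Shh start anchor of ESC was split into 28462546-28464783 and 28465835-28467922 in NCC.

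**Figure D1:**
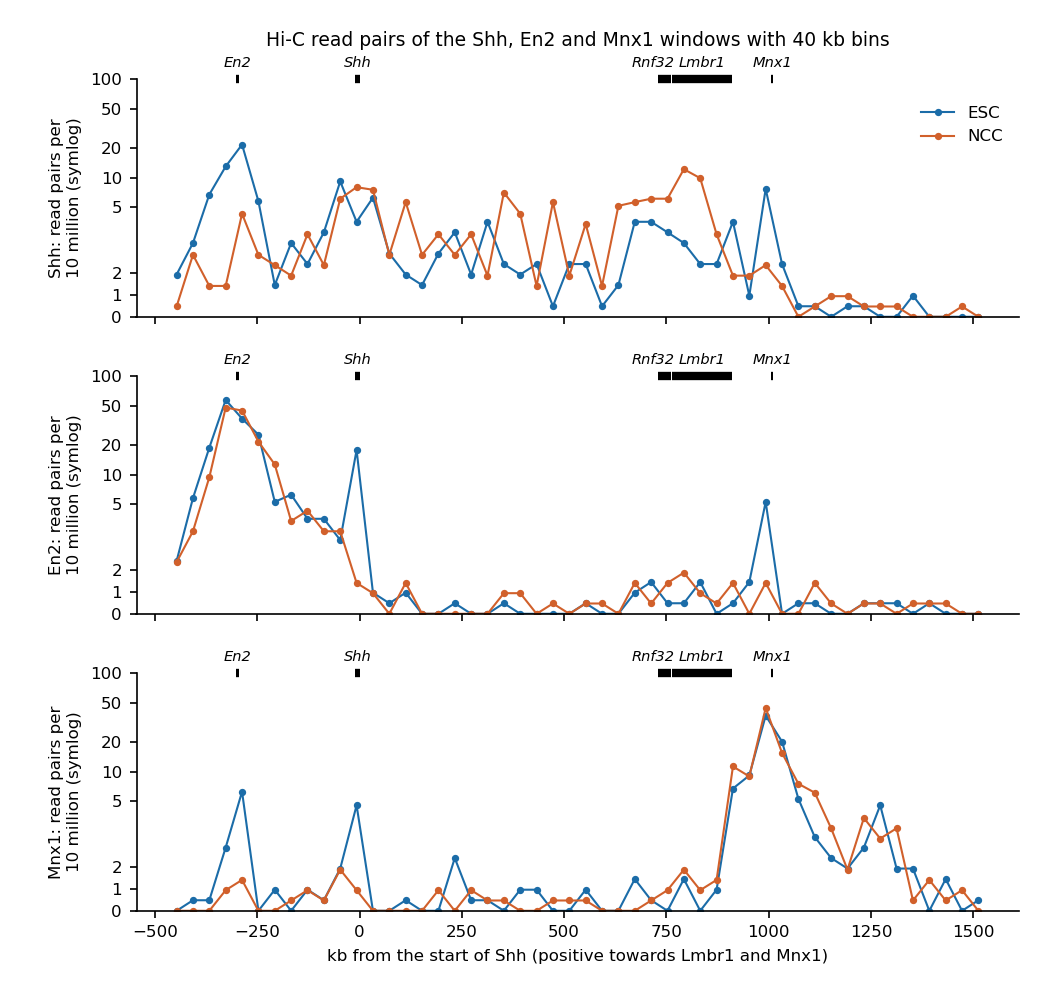
Hi-C read pairs of the Shh, En2 and Mnx1 windows (top to bottom) with 40 kb bins, scaled to the table total on a symmetric log axis, against kb from the start of Shh; ESC is blue, NCC orange, and black bars mark the genes. In ESC each of the 3 windows shows peaks at the other 2, and in NCC Shh shows more read pairs around Rnf32 and Lmbr1.

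A test across the genome placed these pairs among others. Read pairs were counted between 10 kb on each side of any 2 protein-coding gene starts that lie 50 kb to 2 mb apart, and were tested with an exact binomial test against the share of their distance class. This test was chosen after the En2 and Shh contact had been seen. Of 47706 pairs with at least 20 Hi-C read pairs, 2240 (4.7%) were lower and 1407 (2.95%) higher in NCC at an adjusted p under 0.05. En2 with Shh had 50 read pairs in ESC and 8 in NCC, a log2 ratio of −2.62 (exact binomial test with Benjamini-Hochberg adjustment, adjusted p = 3.36e-06). En2 with Mnx1 had 19 and 3, a log2 ratio of −2.70 (exact test, adjusted p = 0.0156). Shh with Mnx1 had 15 and 5, a log2 ratio of −1.59, and did not pass (exact test, adjusted p = 0.22). Ranks were taken among pairs of gene starts of like distance, within a factor of 1.1, with at least 1 read pair in ESC or NCC. Of these, 13 of 19251 had at least as many ESC read pairs as En2 with Shh. The counts were 8 of 33668 for Shh with Mnx1 and 1 of 32601 for En2 with Mnx1, each with the pair itself. In NCC the same counts were 4420, 623 and 1966. These ranks use raw counts and make no allowance for the strength of the anchors. In ESC, 92.7% of gene starts had no more Hi-C read pairs than En2, 70.1% no more than Mnx1 and 54.2% no more than Shh. With only anchors that overlap an anchor of the other cell type, En2 with Shh remained at 50 and 8 read pairs (exact test, adjusted p = 4.25e-06), and En2 with Mnx1 was at 18 and 3 (adjusted p = 0.026 by the same exact test).

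The other pairs of members had fewer read pairs or did not pass. Of all 10 pairs of members, 4 had enough read pairs to be tested and 2 passed, both lower in NCC. Lmbr1 with Mnx1 had 14 read pairs in ESC and 24 in NCC, a log2 ratio of 0.78 (exact binomial test, adjusted p = 0.45). Shh with Rnf32 had 6 and 8, and Shh with the start of Lmbr1 had 10 and 2, both too few to be tested. In ESC 56 of 33509 pairs of like distance had as many as Shh with Lmbr1, and in NCC 10268 had. Rnf32 had at most 6 read pairs with Lmbr1 and at most 3 with En2 or Mnx1 in either cell type. In HiChIP, En2 with Shh had 5 (ESC) and 1 (NCC) read pairs with the FGFR1 antibody and 2 and 0 with the CTCF antibody, where a count of 0 allows up to 3.

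Promoter sequences from RefSeq (GRCm38.p6) run from 250 bases before to 50 after the start, 5′ to 3′, with each CG dinucleotide in capitals. They are shown for Mnx1, among the genes whose windows met in ESC, and for Lmbr1 beside it for comparison. Of the 5 members 3 were matched, and Shh and En2 were not. In ESC, CG-rich promoters of developmental regulators commonly carry Polycomb proteins, which were not measured in the tables used here.
Mnx1 promoter, chr5:29478421-29478720, − strand: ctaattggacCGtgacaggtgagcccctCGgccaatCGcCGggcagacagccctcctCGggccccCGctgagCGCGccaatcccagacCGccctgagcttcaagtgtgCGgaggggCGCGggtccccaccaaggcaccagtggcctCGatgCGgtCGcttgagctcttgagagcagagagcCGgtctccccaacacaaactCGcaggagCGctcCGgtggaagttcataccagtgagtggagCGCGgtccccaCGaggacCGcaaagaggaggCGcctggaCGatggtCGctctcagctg
Lmbr1 promoter, chr5:29378341-29378640, − strand: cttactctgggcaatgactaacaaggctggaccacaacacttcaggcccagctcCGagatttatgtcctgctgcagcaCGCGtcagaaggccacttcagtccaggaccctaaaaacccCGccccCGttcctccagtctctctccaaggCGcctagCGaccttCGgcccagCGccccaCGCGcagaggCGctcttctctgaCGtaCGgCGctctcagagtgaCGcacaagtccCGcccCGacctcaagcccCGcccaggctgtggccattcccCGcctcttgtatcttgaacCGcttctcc
The Mnx1 promoter holds 26 CG dinucleotides, and 84.5% of 32851 RefSeq promoters of the same length hold no more. Lmbr1 holds 21 (76.9%), and the promoter of Rnf32 holds 36 (94.4%), against a median of 7. The number of CG dinucleotides at Mnx1 thus lay between those of Lmbr1 and Rnf32.

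Within its own domain, Shh had more read pairs with the desert and the body of Lmbr1 in NCC. Hi-C read pairs with the desert numbered 104 in ESC and 155 in NCC, a log2 ratio of 0.54 (0.17 to 0.92), and 0.59 (0.22 to 0.96) when scaled to distance. The desert held 79 anchors over 263 kb in ESC and 88 over 325 kb in NCC. Observed over expected, which takes the strength of these anchors into account, was 1.76 (1.44 to 2.14) in ESC and 2.40 (2.04 to 2.81) in NCC. With the Lmbr1 gene, Shh had 25 read pairs in ESC and 62 in NCC, a log2 ratio of 1.28 (0.59 to 2.01), and observed over expected was 11.9 (7.72 to 17.6) and 21.5 (16.5 to 27.6). Lmbr1 held 22 anchors in both, over 61.4 kb in ESC and 83.0 kb in NCC. With anchors shared by both cell types, the log2 ratio was 0.64 for the desert (86 and 136 read pairs) and 1.12 for Lmbr1 (25 and 55). With scores of at least 2 only, the desert had 56 and 69 read pairs, and the interval of its log2 ratio of 0.30 (−0.23 to 0.84) included 0.

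The Lmbr1 end itself, with ZRS, gave no difference beyond counting error. Shh had 13 read pairs with it in ESC and 16 in NCC, a log2 ratio of 0.27 (−0.88 to 1.44). These were 15.7 (8.33 to 26.8) times the expected number in ESC and 14.4 (8.26 to 23.5) in NCC, with both intervals above 1. The interval of the difference allows anything from a fall to 0.542 times to a rise to 2.72 times the ESC level. Values above 1 over this stretch were not confined to Shh. En2 stood at 5.68 (1.55 to 14.5) in ESC and 3.47 (0.947 to 8.9) in NCC with anchors 1100 to 1200 kb from its start, inside Lmbr1. With anchors 1000 to 1100 kb away, around Rnf32, En2 stood at 3.29 (0.897 to 8.43) and 6.34 (2.74 to 12.5). Shh with Rnf32, at the near end of the Lmbr1 block, was also level, with 12 and 17 read pairs. Observed over expected was 15.2 (7.88 to 26.6) and 15.9 (9.27 to 25.5).

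In steps of 100 kb, the Hi-C contacts of Shh relative to expectation climbed towards Lmbr1 in both cell types. Observed over expected was 0.966 in ESC and 1.04 in NCC at 0 to 100 kb, 2.68 and 3.30 at 300 to 400 kb, and 9.0 and 13.2 at 600 to 700 kb. At 700 to 800 kb, which holds the start of Rnf32, it was 9.61 (5.95 to 14.7) in ESC and 16.3 (11.6 to 22.3) in NCC. The highest NCC value was at 800 to 900 kb inside Lmbr1, with 26.5 (19.1 to 35.9) from 42 read pairs, against 12.7 (6.55 to 22.2) from 12 read pairs in ESC. Beyond the start of Lmbr1 it was 6.42 in ESC and 4.64 in NCC at 900 to 1000 kb. At 1000 to 1100 kb, the step of Mnx1, ESC stood again at 14.4 (8.53 to 22.7) from 18 read pairs, while NCC stood at 4.53 (1.47 to 10.6) from 5. On the other side, the step 300 to 400 kb away holds the start of En2 and part of the stretch before it. It had 84 read pairs in ESC, 4.89 (3.90 to 6.06) times the expected number, and 11 in NCC, 0.876 (0.437 to 1.57) times. Of the 84, 37 were with the En2 window. Anchors were placed by midpoint, which put the longer NCC anchor of En2 (28164424-28172564) outside this step.

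**Figure D2:**
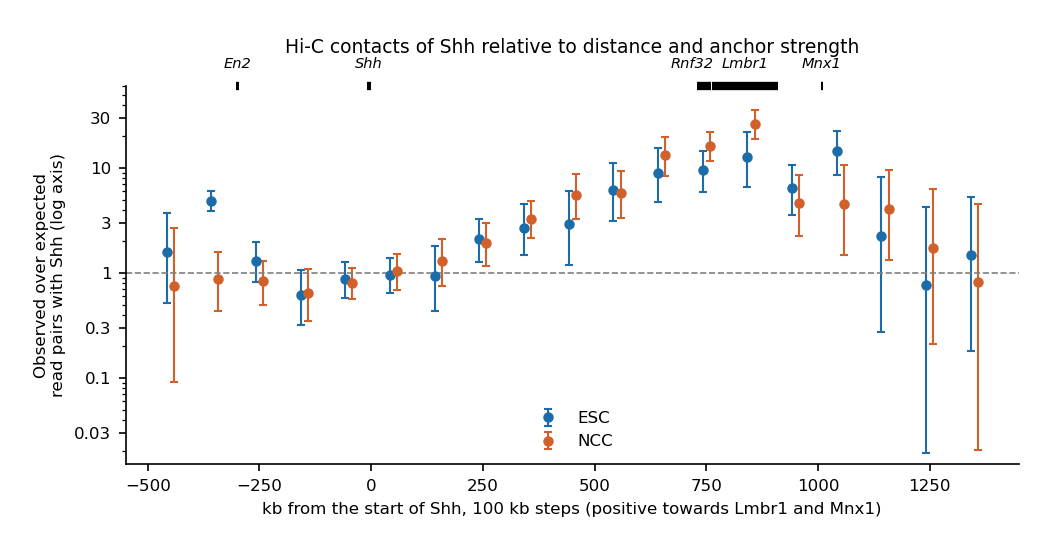
Observed over expected Hi-C read pairs of the Shh window in 100 kb steps (log axis) against kb from the start of Shh, ESC in blue and NCC in orange, with 95% exact Poisson intervals as bars and a dashed line at 1. Both climb towards Lmbr1, where NCC reaches 26.5. ESC stands above NCC in the step with the En2 start and part of the stretch before it (4.89 against 0.876), and in that of Mnx1 (14.4 against 4.53).

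RefSeq lists 11 enhancers or conserved elements for Shh in the region, and Hi-C contacts were counted in 20 kb around each. ZRS (29314497-29315862, in an intron of Lmbr1, needed for Shh in the limb bud) had 2 read pairs with Shh in ESC and 6 in NCC, with observed over expected of 5.71 (0.692 to 20.6) and 17.6 (6.47 to 38.4). MACS1 (29211998-29212804, in Rnf32) had 7 and 10, at 13.4 and 17.6 times the expected number. MFCS4 (29187495-29188493), before Rnf32, had 6 and 7, at 11.5 and 13.3 times. The 5 elements from 618.9 kb outwards, which are MRCS1, MFCS3, MFCS4, MACS1 and ZRS, all lay between 5.71 and 13.4 in ESC and between 10.4 and 17.6 in NCC, with intervals that overlap between the cell types. The brain enhancers SBE2, SBE3 and SBE4, in the middle of the desert, had at most 6 read pairs with Shh in either cell type. Observed over expected was 0.951 in ESC and 4.44 in NCC for SBE2, 4.48 and 11.1 for SBE3, and 3.09 and 1.7 for SBE4. Of their intervals, only those of SBE3 in NCC (from 2 read pairs) and SBE4 in ESC lay above 1. The lung and gut enhancer SLGE (28562649-28564448) had 1 read pair in ESC and 10 in NCC, but with 2 anchors in ESC and 4 in NCC, and NCC stood at 1.47 (0.704 to 2.70) times the expected number. SFPE1, a floor plate enhancer next to the gene, had a Hi-C anchor in ESC but not in NCC, and SBE1 lies inside the Shh window.

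Away from the desert, Shh had fewer contacts in NCC at En2 and before it. On the whole side from En2 to Shh, Shh had 99 read pairs in ESC and 68 in NCC, a log2 ratio of −0.58 (−1.04 to −0.12). Without the En2 window it had 62 and 65, a log2 ratio of 0.04 (−0.49 to 0.56). In the stretch before En2 (28000000-28165693) it had 52 and 13, a log2 ratio of −2.03 (−3.03 to −1.14), and observed over expected was 3.24 (2.42 to 4.24) in ESC and 0.853 (0.454 to 1.46) in NCC. Past Mnx1 it had 11 and 12 read pairs, with observed over expected of 2.04 and 2.37.

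The desert also met itself and Lmbr1 more often in NCC, but its anchors were stronger there too. Hi-C read pairs inside the desert numbered 1609 in ESC and 2585 in NCC, a log2 ratio of 0.65 (0.56 to 0.74), and 0.40 with shared anchors (1330 and 1778). Observed over expected, which divides by the anchor strengths, was higher in ESC, with 2.58 (2.46 to 2.71) in ESC and 1.89 (1.82 to 1.96) in NCC. Desert with Lmbr1 had 259 and 514 read pairs, a log2 ratio of 0.96 (0.74 to 1.18) and 0.84 with shared anchors, while observed over expected was 3.21 (2.83 to 3.63) and 2.86 (2.61 to 3.11). The contacts of Shh with the desert and with Lmbr1, given above, were higher in NCC on both scales.

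The contacts of En2 and Mnx1 with the rest of the region as a whole were close in number in ESC and NCC. En2 had 430 Hi-C read pairs with the rest of the region in ESC and 382 in NCC, a log2 ratio of −0.20 (−0.41 to 0.00). Those with the stretch before En2 numbered 175 and 135 (log2 ratio −0.41, −0.74 to −0.08), and those with the stretch from En2 to Shh 179 and 203 (0.15, −0.15 to 0.45). Mnx1 had 270 and 278 read pairs with its surroundings, a log2 ratio of 0.01 (−0.24 to 0.26). Of these, 108 and 133 were with the stretch between Lmbr1 and Mnx1, and 97 and 105 with the region past Mnx1. Observed over expected for Mnx1 with its surroundings was 1.35 in ESC and 1.12 in NCC, a log2 ratio of −0.26 (−0.51 to −0.02). For En2 it was 1.23 and 1.09 (−0.17, −0.37 to 0.03). With the desert, En2 stood at 0.748 (0.386 to 1.31) in ESC and 0.807 (0.461 to 1.31) in NCC. Mnx1 stood at 1.3 (0.757 to 2.08) and 0.505 (0.242 to 0.929), so that neither gene met the desert above expectation beyond counting error. For Mnx1 the NCC interval lay below 1, and the log2 ratio of observed over expected was −1.36 (−2.65 to −0.15). These values come from 17 and 10 read pairs, whose log2 ratio scaled to the table total was −0.80 (−2.09 to 0.41).

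HiChIP tables held few read pairs for single windows of the region. With the FGFR1 antibody, Shh and the desert shared 10 read pairs in ESC and 20 in NCC, a log2 ratio of 0.73 (−0.43 to 1.99), and shared anchors left 6 and 4 (−0.65). Shh with the Lmbr1 gene had 1 and 7. Desert with Lmbr1 had 20 and 88, a log2 ratio of 1.87 (1.16 to 2.65), where Lmbr1 held 10 anchors over 24.6 kb in ESC and 18 over 49.6 kb in NCC, and shared anchors gave 12 and 26 (1.05, 0.01 to 2.17). En2 with its surroundings had 34 and 23 read pairs (−0.83, −1.66 to −0.03), and Mnx1 had 38 and 15 (−1.61, −2.58 to −0.71). The Mnx1 anchor was longer in ESC (29472724-29477610) than in NCC (29475291-29477610). Observed over expected, which takes anchor strength into account, was 1.33 and 0.938 for Mnx1 and 1.37 and 1.19 for En2, and the intervals of both differences included 0 (log2 −0.51, −1.48 to 0.39, and −0.21, −1.04 to 0.59). With scores of at least 2, Mnx1 had 18 and 10 read pairs (−1.01, −2.28 to 0.19). At Mnx1 the lower count was on the side past the gene, with 21 and 2. With the CTCF antibody, Shh and the desert shared 6 and 4 read pairs, Shh and the Lmbr1 gene 4 and 5, and Mnx1 and its surroundings 5 and 8, all too few to show a difference at this depth. En2 had 7 CTCF HiChIP read pairs with its surroundings in ESC, and no CTCF anchor covered En2 in NCC.

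Pairs of 100 kb bins gave a test of the whole region against the genome. Read pairs inside 1 anchor were counted here, and all of them fall in pairs of a bin with itself. Of 139828 Hi-C bin pairs up to 2 mb apart with at least 20 read pairs, 10.3% were higher and 10.6% lower in NCC (exact binomial test against the share of the same distance, Benjamini-Hochberg adjusted p under 0.05), with a median log2 ratio of 0.00. In the region 122 were tested, of which 36 were higher and 7 lower. With both bins between the Shh bin and the bin of the Lmbr1 start, 55 were tested, 26 were higher and 0 lower, and the median log2 ratio was 0.78. They held 3930 read pairs in ESC and 5922 in NCC. Across an edge of this domain, 3 of 31 were higher and 1 lower, and outside it 7 of 36 were higher and 6 lower. With shared anchors, 12 of the 55 inside the domain were higher and 0 lower, with a median of 0.56, where 6881 of 121553 bin pairs were higher and 6900 lower over the genome.

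The lower bin pairs included those of the En2 bin with the Shh bin and with the Mnx1 bin. The En2 and Shh bins had 117 read pairs in ESC and 61 in NCC, a log2 ratio of −0.91 (exact binomial test, adjusted p = 0.000552). The En2 and Mnx1 bins had 48 and 15, a log2 ratio of −1.71 (exact test, adjusted p = 0.000279). The Shh and Mnx1 bins had 32 and 24 and did not pass (exact test, adjusted p = 0.616). The remaining 5 lower bin pairs lay between 29700001 and 30000000, at Dnajb6 and past it. The Shh bin had more read pairs in NCC with the bin 400 kb away (25 and 54, log2 ratio 1.14, adjusted p = 0.00754 by the exact test). The same held for the bin 800 kb away (44 and 86, 0.97, adjusted p = 0.00232 by the exact test). It also held for the bin 900 kb away, with the Lmbr1 start (32 and 66, 1.04, adjusted p = 0.00583 by the exact test). This last pair does not single out Shh or the Lmbr1 start. The Shh window had 13 and 16 read pairs with the Lmbr1 end, and the Shh start had 10 and 2 with the Lmbr1 start. The largest differences by p were inside the desert, led by the bin 28800001-28900000 with itself (189 and 467 read pairs, log2 ratio 1.31, adjusted p = 5.42e-26 by the exact test). The bin next to Shh and the Lmbr1 bin 29200001-29300000 had 9 and 42 (2.23).

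**Figure D3:**
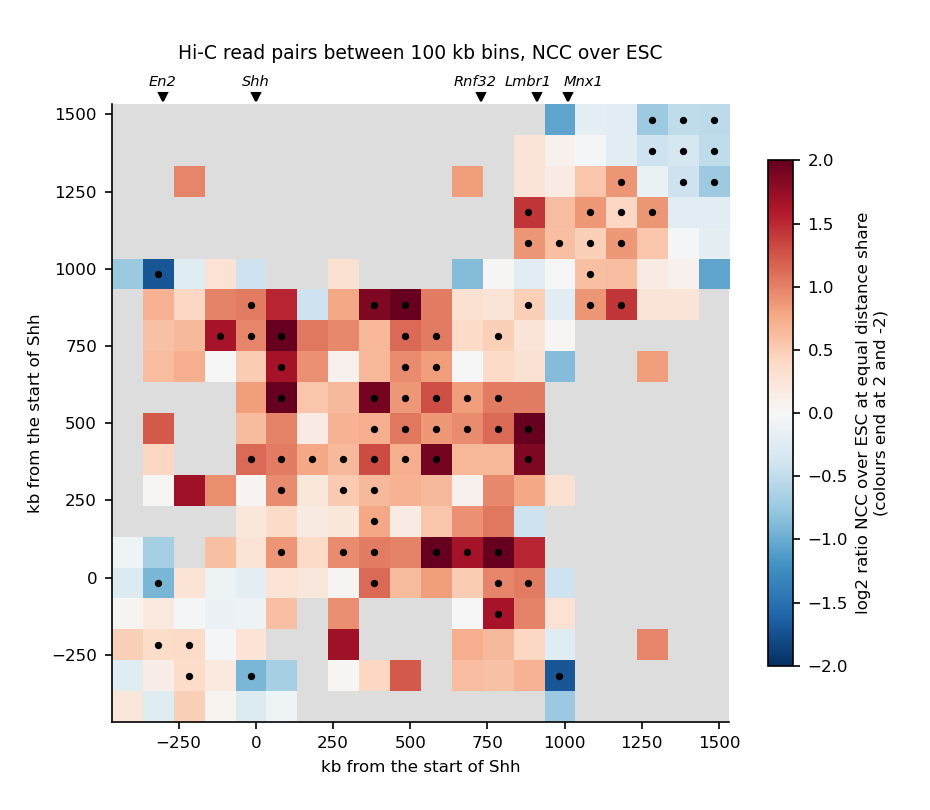
Log2 ratio of NCC over ESC Hi-C read pairs for pairs of 100 kb bins, scaled to the share of the same distance, both axes in kb from the start of Shh; grey pairs held fewer than 20 read pairs, dots mark an adjusted p under 0.05, and colours end at 2 and −2. The block from Shh to Lmbr1 is red with 26 of 55 pairs marked, and the En2 pairs with Shh and Mnx1 are blue.

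In HiChIP fewer bin pairs could be tested. For FGFR1, 12.0% of 46554 were higher and 10.7% lower in NCC. In the region 4 of 38 were higher and 3 lower, of which 3 of 15 inside the Shh domain were higher and 0 lower. For CTCF, 8.25% of 22699 were higher and 8.32% lower. In the region 1 of 21 was higher and 3 lower, and 2 of the lower ones were the Shh bin with itself (43 and 8 read pairs, log2 ratio −2.0, exact test, adjusted p = 0.00168) and the En2 bin with itself (48 and 12, −1.58, adjusted p = 0.00538 by the same exact test). Both of these CTCF counts include read pairs inside 1 anchor. With shared anchors, 0 of the 23 FGFR1 and 0 of the 13 CTCF bin pairs of the region passed the exact binomial test, where 6.84% of 28429 and 2.86% of 10845 passed over the genome.

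Domain edges were sought as minima of the read pairs that cross a 40 kb bin edge, divided by those inside the 200 kb on each side. An edge lay 27 kb from the start of Shh on the side of Rbm33 in both cell types and all 3 assays. Its Hi-C crossing ratio was 0.110 (0.088 to 0.136) in ESC and 0.113 (0.092 to 0.138) in NCC, against genome medians of 0.262 and 0.258. The FGFR1 ratios were 0.097 and 0.079 and the CTCF ratios 0.103 and 0.026, the last from 6 and 1 crossing read pairs. The far edge lay 893 kb from Shh, inside Lmbr1 and 18 kb from its start, with Hi-C ratios of 0.139 (0.116 to 0.166) in ESC and 0.133 (0.112 to 0.157) in NCC. At these settings both edges of the Shh domain had the same place and overlapping ratios in ESC and NCC Hi-C. With 400 kb squares and with shared anchors, the ESC edge at Shh lay at 13 kb, on the desert side of the gene. ESC CTCF HiChIP placed it there too under these settings, while the NCC Hi-C edge stayed at −27 kb. The ESC edge thus moved by 1 bin from one side of Shh to the other, so the side on which Shh lay in ESC depended on the setting. With shared anchors the NCC far edge lay at 853 kb, also 1 bin away. CTCF HiChIP placed the far edge at 893 kb in ESC (0.088) and at 813 kb in NCC (0.128), from 6 and 7 crossing read pairs. With 400 kb squares both CTCF tables placed it at 893 kb, and with shared anchors both at 813 kb.

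Other minima differed more between the cell types. At 1213 kb, between Ube3c and Dnajb6, the Hi-C ratio was 0.175 (0.15 to 0.203) in ESC and 0.235 (0.206 to 0.266) in NCC. A shallow minimum inside the desert, at 573 kb, was found in NCC Hi-C only and stood at 0.298, above the genome median. FGFR1 HiChIP had minima inside the desert at 533 kb in both cell types (0.217 and 0.189), and CTCF HiChIP at 453 kb in ESC (0.081) and 533 kb in NCC (0.044), each from 16 crossing read pairs or fewer.

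**Figure D4:**
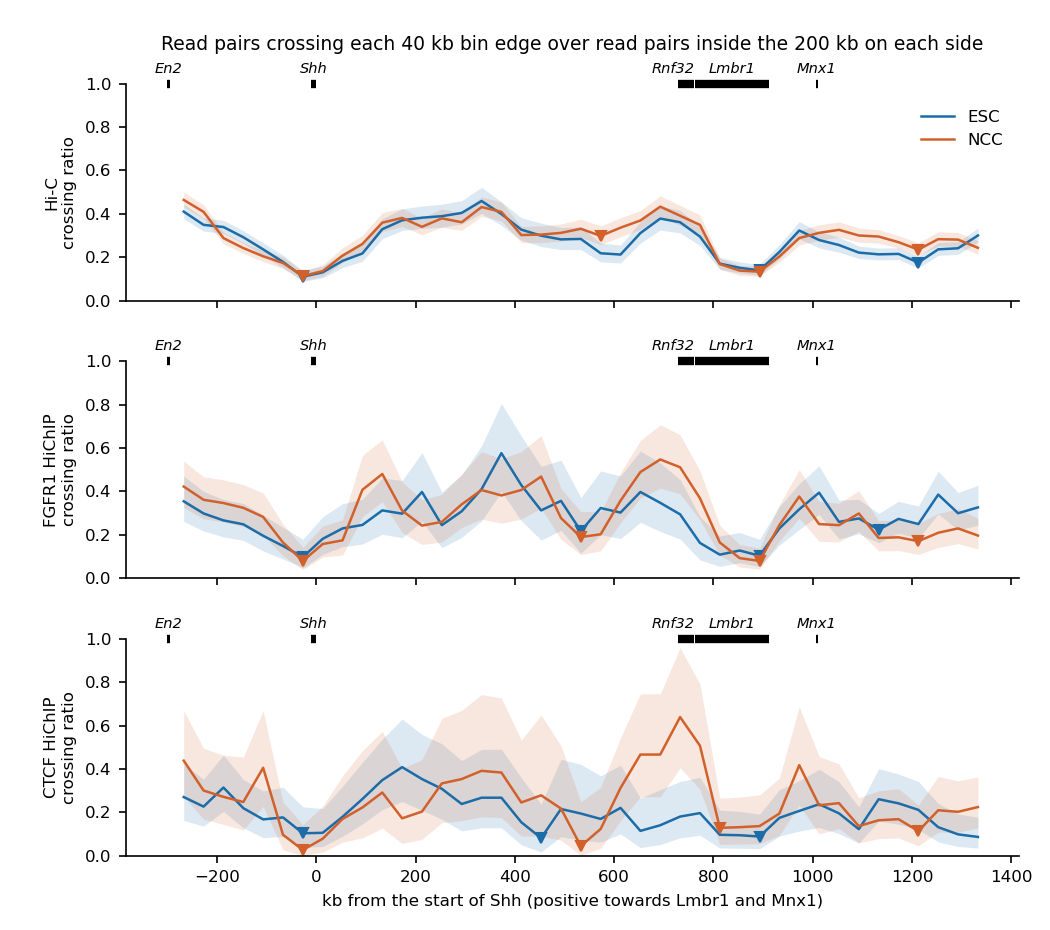
Read pairs that cross each 40 kb bin edge over the mean of those inside the 200 kb on each side, for Hi-C, FGFR1 HiChIP and CTCF HiChIP (top to bottom), against kb from the start of Shh; lines are ESC (blue) and NCC (orange), bands are 95% exact Poisson intervals, and triangles mark minima. All 6 lines dip 27 kb before the start of Shh, and both Hi-C lines dip again at 893 kb in Lmbr1.

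Matches to the CTCF core consensus, searched on both strands of GRCm38, numbered 8 in the region. They fell in 8 of its 50 bins of 40 kb, while 16.2% of 65834 such bins of the genome hold a match. The 3 that lay nearest to edges are shown because their place and direction can be set beside the crossing ratios, with the 12 matched bases in capitals, read 5′ to 3′ on the strand of the match.
Near the Shh edge, chr5:28451367-28451386, + strand: atggCCACCAGAGGGCgctc
Near the Lmbr1 edge, chr5:29336034-29336053, − strand: gataCCAGCAGGTGGCagta
Near the edge past Ube3c, chr5:29687867-29687886, − strand: ttggCCACTAGGTGGCaaaa
The first lies 11 kb from the edge at Shh, the second 24 kb from the edge in Lmbr1, and the last 8 kb from the edge at 1213 kb. The + match at Shh and the − match in Lmbr1 point towards each other across the domain. Between them lay a − match at 52 kb, in an ESC CTCF HiChIP anchor with 12 read pairs, and a + match at 781 kb in Lmbr1, which point away from each other. No CTCF HiChIP anchor covered the matches nearest to the edges at Shh and in Lmbr1 in ESC or NCC. The one at Shh had an NCC Hi-C anchor with 71 read pairs and an NCC FGFR1 HiChIP anchor with 13, and no anchor in ESC. The match past Ube3c lay in a CTCF HiChIP anchor with 20 read pairs in ESC and 35 in NCC, which took part in CTCF interactions with a score of 2 with 29559688-29563303 in ESC and with 29564375-29570230 at the start of Ube3c in NCC. A match is a description of letters and not a measured site.

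Total interaction strength at the gene starts was compared over 10 kb on each side. In Hi-C, 36.5% of 20290 gene starts were lower and 31.6% higher in NCC, and of the 5 members 1 was lower and 0 higher, with a median log2 ratio over all genes of −0.03. Shh had 615 read pairs in ESC and 480 in NCC, a log2 ratio of −0.39 (−0.57 to −0.22; exact binomial test, adjusted p = 2.21e-05). Over its whole gene body the log2 ratio was −0.19 and did not pass (exact test, adjusted p = 0.0608). En2 had the most read pairs of the members, 1549 and 1531 (log2 ratio −0.05). Mnx1 had 858 and 921 (0.07), Lmbr1 529 and 610 (0.17), and Rnf32 405 and 425 (0.04). Over whole gene bodies, Lmbr1 (0.62, adjusted p = 8.35e-41) and Rnf32 (0.48, adjusted p = 3.86e-08) were higher in NCC by the exact test. En2 and Mnx1 did not pass over whole gene bodies (exact test, adjusted p = 0.123 and 0.922). At the gene starts neither En2 (exact test, adjusted p = 0.406) nor Mnx1 (0.385) passed. With shared anchors the start of Mnx1 was higher at 0.17 (adjusted p = 0.0308 by the exact test).

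FGFR1 HiChIP read pairs were lower in NCC at 3 of the 5 gene starts and higher at 0, where 29.8% of 19672 gene starts were lower and 21.2% higher. En2 had 127 and 85 read pairs (log2 ratio −0.85, exact test, adjusted p = 0.000127), Mnx1 101 and 76 (−0.68, exact test, adjusted p = 0.00627) and Lmbr1 104 and 87 (−0.52, exact test, adjusted p = 0.0312), beside a median of −0.14 over all genes. With shared anchors En2 (−1.06) and Mnx1 (−1.01) passed, while Lmbr1 turned to 0.32 (exact test, adjusted p = 0.477), and over the whole body Lmbr1 was higher at 0.80 and En2 did not pass (−0.59, exact test, adjusted p = 0.0762). Shh had 73 and 72 read pairs (−0.29) and Rnf32 60 and 88 (0.29), and neither passed.

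CTCF HiChIP read pairs were lower in NCC at 2 gene starts and higher at 1, where 18.5% of 17128 were lower and 17.3% higher. En2 had 45 read pairs in ESC and 1 in NCC, a log2 ratio of −5.29 (−10.62 to −2.73; exact test, adjusted p = 1.31e-09). Shh had 52 and 24 (−0.91, exact test, adjusted p = 0.0361), and without read pairs inside 1 anchor the same ratio was −0.70 (exact test, adjusted p = 0.156). Rnf32 had 14 and 28 (1.21, exact test, adjusted p = 0.0392). With shared anchors neither Shh (−0.12) nor Rnf32 (0.49) passed, and En2 had no shared anchor. Lmbr1 had 50 and 31 (−0.48) and Mnx1 39 and 32 (−0.08), and neither passed.

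**Figure D5:**
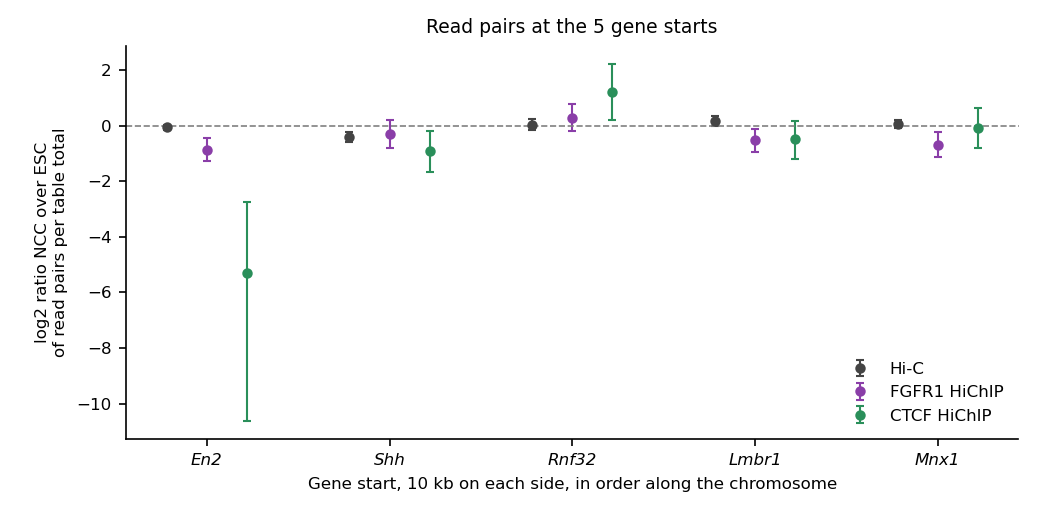
Log2 ratio of NCC over ESC read pairs, scaled to the table total, within 10 kb of the 5 gene starts in chromosome order, for Hi-C (grey), FGFR1 HiChIP (purple) and CTCF HiChIP (green), with 95% exact intervals as bars. Hi-C ratios lie between −0.39 and 0.17, and CTCF HiChIP at En2 stands at −5.29 with a wide interval.

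HiChIP over Hi-C at gene starts was set against all genes. This ratio depends on which anchors were called in each library as well as on enrichment by the antibody. With the FGFR1 antibody in ESC, Lmbr1 stood at a log2 ratio of 0.62 (0.30 to 0.92), above 86.3% of 19953 genes, and En2 at −0.65, above 36.8%, with a median of −0.34. In NCC, Lmbr1 was at −0.08 (64.4%), Mnx1 at −0.87 (33.5%), against −0.12 in ESC, and En2 stood at −1.44 (17.1%), with a median of −0.45. Shh was near the middle in both, at −0.11 (60.3%) in ESC and −0.01 (67.2%) in NCC. With the CTCF antibody, Shh was at 0.53 (82.2%) in ESC and 0.01 (62.4%) in NCC, and Lmbr1 at 0.69 (86.3%) and 0.03 (63.2%), against medians of −0.32. En2 was at −1.02 (26.4%) in ESC and, from 1 CTCF read pair, at −6.25 (8.19%) in NCC. Rnf32 was at −0.76 (33.7%) and 0.40 (76.4%), and Mnx1 at −0.37 (47.7%) and −0.52 (43.0%). Over whole gene bodies Lmbr1 in ESC FGFR1 HiChIP was at −0.24.

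Other genes of the Hedgehog pathway, all 18 of them tested at their starts, moved in both directions. In Hi-C 7 were higher and 6 lower in NCC. Those higher included Gli3, a transcription factor that largely represses targets (316 and 485 read pairs, log2 ratio 0.58), the transducer Smo (0.56) and the coreceptor Gas1 (0.52). Those lower included Gpr161, a ciliary receptor that restrains the pathway (−0.50), Sufu, which holds Gli proteins back (−0.49), and Disp1, which releases the ligand (−0.45). In FGFR1 HiChIP 4 were higher, with the coreceptor Cdon at 1.97 and Gpr161 at 1.52, and 6 were lower, with the acyltransferase Hhat at −2.40. The ligand Ihh had 56 FGFR1 read pairs in ESC and 0 in NCC, where a count of 0 allows up to 3. In CTCF HiChIP 2 were higher, which were the inhibitor Hhip (1.86) and Gli1 (0.53), and 3 were lower, among them the ligand Dhh (−1.52) and Gpr161 (−0.94). These counts lie near the shares of all genes given above.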

How the data were processed

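Hi-C and HiChIP against FGFR1 and CTCF were analysed in 12 samples, 2 biological replicates for each of 2 cell types and 3 assays. In the deposited tables a score is a raw count, the number of read pairs between 2 anchors. The authors aligned to mm10 and removed duplicates with HiC-Pro, then assigned pairs with hichipper (anchors from all reads of a sample, without a q filter), and summed both replicates. Tool versions are not given in the sources used here. Calling anchors per library changes which read pairs are counted, so results were repeated with anchors that overlap in both cell types. Anchors in the region start and end at GATC, which was checked on GRCm38. Counts were summed over windows of anchors that overlap them and scaled to the table total of chromosomes 1 to 19 and X. Expected counts used the product of anchor strengths and the frequency of their distance class, with 10 classes per factor of 10. Ratios have exact conditional binomial intervals, and observed over expected has exact Poisson intervals. Bin pairs, gene starts and pairs of gene starts with at least 20 read pairs in both tables together were tested by two-sided exact binomial tests with Benjamini-Hochberg adjustment over all features tested, called at an adjusted p under 0.05.

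The members, windows and lists were chosen with earlier results of these data known. The test of pairs of gene starts, the En2 window and the 100 kb steps were chosen after the data were seen. Named were the 5 members, up to 4 Hedgehog genes called in each direction by the size of the log2 ratio, bin pairs of the Shh bin or among the 10 lowest p, and up to 5 interactions of each table by score among those spanning 100 kb or more. The value of 1 called Hedgehog gene is not reported here. Steps were tested on simulated data. Python 3.11.15, numpy 2.4.6, scipy 1.17.1, pandas 2.3.3 and matplotlib 3.10.9 were used, with GENCODE M21 and RefSeq GRCm38.p6.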

Additional observations from a re-analysis of the deposited data

How the results depend on the processing

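No paired analysis was possible because each deposited table merges both replicates, and for the same reason leaving out a replicate could not be done. Of 140 alternative values, 120 stayed within the limits set for the result, 18 moved and 2 reversed, and the cause was not tested. These limits did not require the same sign or place. Shh with the Lmbr1 end in Hi-C changed sign within them with scores of at least 2. So did Shh with the desert in CTCF HiChIP with shared anchors. With 400 kb squares, 2 of the 4 main edges of the NCC CTCF table had an edge within 40 kb. That table still counted as within the limits. Log2 ratios left infinite by a count of 0 are not among the 140. The log2 ratio of Shh with En2 in Hi-C lay between −3.66 and −3.49 under all settings run. With scores of at least 2, that of Shh with the Lmbr1 end in Hi-C was −0.32 (−1.87 to 1.17), and the interval of Mnx1 with its surroundings in FGFR1 HiChIP included 0 (−1.01, −2.28 to 0.19). With shared anchors, that of En2 with its surroundings in Hi-C was −0.29 (−0.50 to −0.08). With scores of at least 2, the log2 ratio of Shh with the side of Rbm33 and En2 in Hi-C was −1.19, and with shared anchors that of Shh with the desert in FGFR1 HiChIP was −0.65. Called Hi-C bin pairs numbered 29202, against 47091 with 40 kb bins and 13781 with shared anchors. FGFR1 bin pairs numbered 10558, against 6771 without a minimum of read pairs and 1945 with shared anchors, and CTCF bin pairs 3761, against 1819 and 310. Called gene starts with shared anchors numbered 3958 for FGFR1 (10030 with all anchors) and 1219 for CTCF (6122). Pairs of FGFR1 gene starts called numbered 13 with all anchors and 0 with shared ones. Against the table totals, 2868 CTCF bin pairs were lower and 1327 higher in NCC, in place of 1888 and 1873. Over whole gene bodies, HiChIP over Hi-C of Shh for FGFR1 was −0.67 in ESC and −0.45 in NCC, that of Lmbr1 for FGFR1 in ESC reversed to −0.24 (0.62 at its start), and that of Rnf32 for CTCF in ESC reversed to 0.24 (−0.76 at its start). Domain edges of the FGFR1 ESC table numbered 2 with 400 kb squares and 7 with scores of at least 2, in place of 4. Those of the CTCF tables numbered 28 in ESC and 27 in NCC with scores of at least 2, where crossing counts of 0 tie, and 7 in ESC with shared anchors, in place of 3 and 4. Depth limits single contacts of HiChIP, most of which hold under 10 read pairs.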
